A study of Mus musculus with 10 samples.

Results

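The distal cluster of the Dlk1-Dio3 domain is a run of microRNA (miRNA) genes from mir-379 to mir-410 on the distal part of mouse chromosome 12, counted here in hearts of 5 ages. Members were chosen by name, from a list of the hairpins in this stretch, with a minimum of 10 counts in at least 1 library. Of 1908 mature miRNAs in the small RNA table, 76 carried a listed name and 63 reached the minimum. These 63 came from 36 hairpins, of which 27 gave both arms and 9 gave 1 arm. Among the 13 names left out, the highest count in any library was 8, and 3 had no count at all. Just inside the minimum lay miR-496a-5p with a highest count of 12, miR-134-3p with 15 and miR-543-5p with 17. Just outside lay miR-654-3p with 8, miR-544-3p with 6 and miR-376c-5p and miR-539-3p with 5 each. In RefSeq (GRCm38.p6) the stretch covers chr12:109709060-109743795, which is 34736 bases on the plus strand. The list adds mir-3072, which RefSeq places just past mir-410, and mir-299b, which lies on the minus strand opposite mir-299a.

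Heart tissue of C57BL/6 mice was sampled on embryonic days 10.5, 14.5 and 17.5, written E10.5, E14.5 and E17.5, after birth in newborns and in adults, and the labels add no treatment, genotype or exact postnatal age. The study's title concerns maturation of cardiomyocytes, the contractile cells of the heart, and an axis of a long noncoding RNA with miR-540-3p, a miRNA of the proximal part of the same domain. Each stage had 1 small RNA library, with 10479309, 11526413, 12848794, 12732634 and 12953867 miRNA counts from E10.5 to the adult. With 1 library per stage there is no spread between animals and no test, and the 95% exact intervals printed here cover counting error only. The labels give the cell type as cardiomyocyte and the source as heart tissue. The cardiomyocyte marker miR-1a-3p was present at every stage. It had 42165, 43298, 57891, 86014 and 224767 counts per 1000000 miRNA counts (CPM) from E10.5 on. Not all 5 listed cardiomyocyte miRNAs had this course, and 1 of them had less CPM in the adult than at E10.5. That one, miR-208b-3p, stood at 704, 939, 1098, 831 and 24.3 CPM. Another, miR-499-5p, was highest in the newborn, with 6441 CPM against 3752 for the adult. Beside them, 2 endothelial miRNAs summed to 21581 CPM in the first library and 38044 in the last. Markers of both kinds of cell were thus present in every library.

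The miRNAs of this cluster lie in an imprinted domain and are made from the maternally inherited chromosome only, as part of a long noncoding transcript that also carries the proximal miRNAs and small nucleolar RNAs. Each hairpin is cut into a 5p and a 3p strand, and usually one of them is loaded into the silencing complex, where the seed, bases 2 to 8 from its 5′ end, pairs with target messenger RNAs. The hairpins arose largely by local duplication in placental mammals, and their miRNAs are best known from the embryo and the brain.

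Mature sequences were taken from RefSeq, which matched 60 of the 63 members. They are shown where members share a seed with each other or with another miRNA, and for the members that lead the counts. Each is written 5′ to 3′ in lower case with the seed in capitals. The first group holds the 2 most abundant members, the near relative miR-411-5p, and a low member with the seed of miR-379-5p. From base 1 to base 8, miR-379-5p and miR-411-5p differ by G2A, where the first base is that of miR-379-5p and positions run from the 5′ end.
miR-541-5p: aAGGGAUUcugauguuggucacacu
miR-379-5p: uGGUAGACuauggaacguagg
miR-411-5p: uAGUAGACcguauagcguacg
miR-1193-5p: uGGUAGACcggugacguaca
miR-409-3p: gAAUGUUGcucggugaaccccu
miR-134-5p: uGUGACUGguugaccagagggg
miR-323-3p: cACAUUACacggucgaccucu

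Besides miR-379-5p with miR-1193-5p, 3 pairs of members carry one seed between them. The 3p strands of the neighbours mir-379 and mir-411 differ over their whole length by U10C and U22C alone, with the base of miR-379-3p first. The 3p strand of mir-299b repeats that of mir-299a but ends 4 bases earlier, so counts of this pair could be split between them. The 5p strands of mir-410 and mir-494 share the last of these seeds.
miR-379-3p: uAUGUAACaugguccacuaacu
miR-411-3p: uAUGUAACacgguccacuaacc
miR-299a-3p: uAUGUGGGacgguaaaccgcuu
miR-299b-3p: uAUGUGGGacgguaaacc
miR-410-5p: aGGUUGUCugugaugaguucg
miR-494-5p: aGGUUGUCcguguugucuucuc

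A further set of members shares its seed with miRNAs encoded outside the domain. The pairs shown are miR-329-3p with miR-362-3p of the X chromosome and miR-410-3p with miR-344d-3p of chromosome 7. The outside partners are printed second.
miR-329-3p: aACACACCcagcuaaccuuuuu
miR-362-3p: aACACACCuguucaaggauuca
miR-410-3p: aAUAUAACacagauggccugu
miR-344d-3p: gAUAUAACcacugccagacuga

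The cluster as a whole was highest at E10.5 and lowest in the adult heart. Its summed counts from the earliest to the last stage were 642182, 392029, 326780, 186690 and 17184. As a share of all miRNA counts this was 6.13% (6.11 to 6.14), 3.40%, 2.54%, 1.47% and 0.133% (0.131 to 0.135). The summed level was therefore 46.2-fold higher at E10.5 than in the adult (45.5 to 46.9). Of the steps between neighbouring stages, newborn to adult had the widest gap, at 11.1-fold (10.9 to 11.2), against 1.80-fold from E10.5 to E14.5, 1.34-fold from E14.5 to E17.5 and 1.73-fold from E17.5 to the newborn. In whole tissue, fewer cells of a type and less RNA per cell cannot be told apart.

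A share of the library moves with whatever else fills it, and miR-1a-3p alone was at 224767 CPM in the adult. Under median-ratio scaling, which sets each library by the miRNAs counted in all 5, the summed cluster was 8.87-fold higher at E10.5 than in the adult. The corresponding folds for the 4 steps were 1.11, 1.13, 1.48 and 4.79. The median log2 difference over all 800 miRNAs with at least 10 counts in a library for the adult against E10.5 came to -1.50 with CPM, while median-ratio scaling gave -0.33, so the typical miRNA of the table lies lower in the adult in CPM. The cluster lay below either median.

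Beside the cluster, markers of some other cell types were lower in the adult library, and those of others were higher. Of the lists used, only the liver and epithelial sums were lower there under both scalings. The endothelial sum was 21581 CPM in the first library and 38044 in the last, and the blood sum 230 and 441. Under median-ratio scaling these 2 sums were 9.18-fold and 9.97-fold higher in the last library. The neural sum was 6413 and 3295 CPM, but 2.68-fold higher in the last library under median-ratio scaling. Both epithelial miRNAs, miR-200b-3p and miR-205-5p, summed to 858 CPM in the first library and 7.49 in the last. That is 115-fold higher at E10.5 in CPM and 22.0-fold under median-ratio scaling, and miR-205-5p had no adult count. The liver miRNA miR-122-5p stood at 894, 118, 619, 105 and 33.3 CPM, or 26.8-fold higher at E10.5 than in the adult and 5.14-fold under median-ratio scaling. All 4 fibroblast and smooth muscle miRNAs were lower in the adult in CPM, with sums of 139274 and 68373, whereas under median-ratio scaling 1 of 4 was lower and the sum was 2.56-fold higher in the adult. Among them, miR-199a-5p was 9.30-fold higher at E10.5 in CPM and 1.79-fold under median-ratio scaling. The part of these cell types in the cluster's course was not tested.

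**Figure D1:**
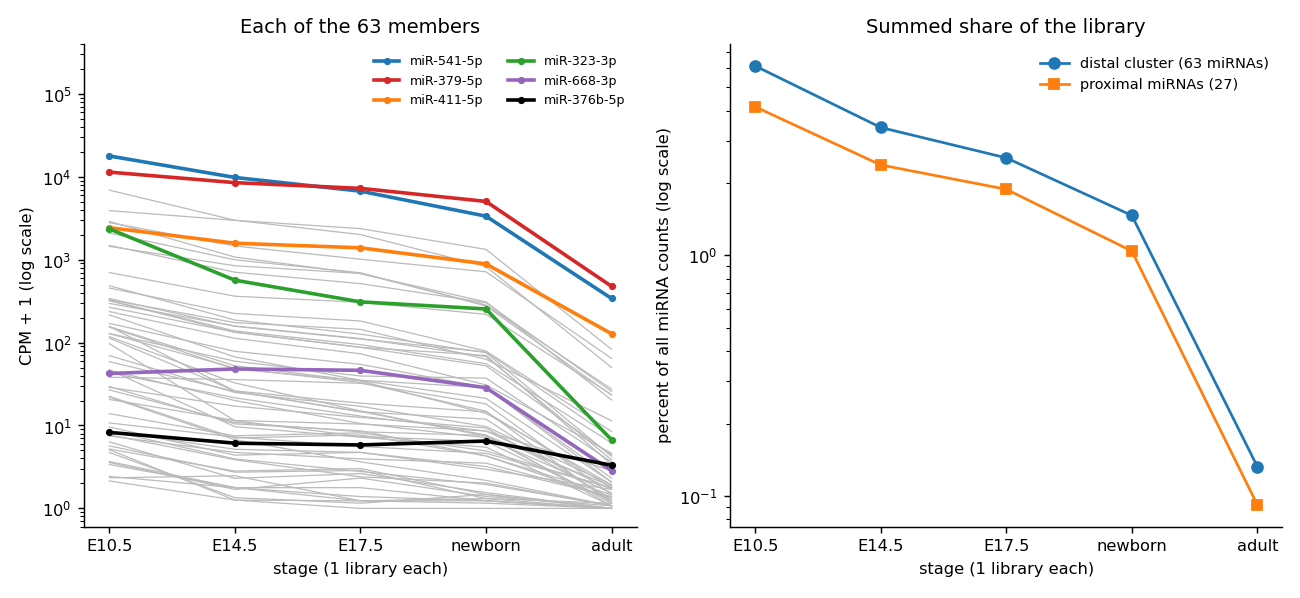
Left, level of each of the 63 members as CPM + 1 on a log scale against stage, with 6 members coloured. Right, summed share of all miRNA counts on a log scale for the distal cluster and for the 27 proximal miRNAs of the domain. The distal share runs from 6.13% at E10.5 to 0.133% in the adult, and the proximal share from 4.15% to 0.0920% beside it.

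The proximal miRNAs of the domain, which come from the same long transcript, had a similar course. Their 27 measured members held 4.15%, 2.38%, 1.88%, 1.04% and 0.0920% of all miRNA counts from E10.5 to the adult. That is 45.1-fold higher at E10.5 than in the adult (44.2 to 45.9), against 46.2-fold for the distal cluster. The distal cluster made up 59.7% of the domain's counts at E10.5, and 58.9%, 57.5%, 58.4% and 59.1% (58.5 to 59.6) at the stages that followed. These shares do not depend on scaling, and they spanned 57.5% to 59.7% while the sums differed 46.2-fold and 45.1-fold between E10.5 and the adult. The median log2 difference of the distal members, adult against E10.5, was 0.34 above that of the proximal ones in CPM, -4.89 against -5.23. This sign turned under median-ratio scaling, with -3.07 against -2.99 and a difference of -0.080, and with at least 100 counts, at -0.22, so no order of both lists is read from it.

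From E10.5 to the adult, at least 10 counts were found for 63, 56, 57, 52 and 34 members. In the adult, 20 members were at or under 3 counts and 9 had none. No share over all 800 miRNAs is given beside these counts or beside the CPM limits that follow. The typical miRNA of the table also had less CPM in the last library, at a median log2 difference of -1.50. Losses by these limits are therefore not read as particular to the cluster. The median member stood at 68.6, 25.0, 14.0, 8.72 and 0.772 CPM over the same series of stages. At E10.5, 30 members were above 100 CPM and 11 above 1000, whereas in the adult 3 were above 100 and 35 were under 1. Of the 50 most abundant miRNAs of each library, the cluster supplied 4, 4, 3, 2 and 0 from E10.5 to the adult. The highest value was at E10.5 for 61 members, where 67.2% of all 800 miRNAs had theirs. For 5 of the 61 (miR-300-5p, miR-487b-5p, miR-496a-5p and both strands of mir-3072) the minimum of 10 counts was met at E10.5 alone, so that peak was fixed by the choice. The exceptions were miR-668-3p and miR-543-5p, and 63 of 63 had their lowest value in the adult, ties at 0 included. For the lowest value no share over all 800 miRNAs is given, so it is not read as particular to the cluster.

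Against E10.5, the adult heart had 63 of 63 members lower by 2-fold or more in log2(CPM + 1), beside 65.2% of all 800 miRNAs, and 0 were higher, beside 7.62%. Their log2 differences ran from -8.45 to -1.10 with a median of -4.89. The choice favoured the place of the same 5 members among the lower ones. With members at 0 taken at 3 counts and no pseudocount, the median was -5.78. Under median-ratio scaling 56 were at least 2-fold lower and 0 higher, with a median of -3.07, while all 800 miRNAs split into 31.6% lower and 23.9% higher. One member turned direction with the scaling, miR-376b-5p, at -1.32 in CPM and 0.60 under median-ratio scaling.

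Stage by stage, 38 members were at least 2-fold lower at E14.5 than at E10.5, beside 26.6% of all miRNAs. The median was -1.07 against -0.60 over all. From E14.5 to E17.5 only 2 were lower, beside 4.75%, with medians of -0.46 and -0.17. The newborn had 14 lower than E17.5, beside 8% of all, with medians of -0.68 and -0.18. The adult had 48 lower than the newborn, beside 34.4% of all, with medians of -2.74 and -0.62. Under median-ratio scaling the 4 steps had 9, 0, 6 and 42 members lower, beside 4.88%, 2.75%, 5.25% and 23.2% of all miRNAs. No member was 2-fold higher at any step under either scaling, while under median-ratio scaling 7.12%, 1%, 5% and 19.2% of all miRNAs were. In CPM the shares of all miRNAs that were higher were 2.75%, 0.875%, 4.25% and 5.38%. A lower value at every one of the 4 steps was seen for 50 members, beside 35.1% of all miRNAs, and for 39 under median-ratio scaling, beside 13.1%. The widest single step was newborn to adult for 47 members, against 44% of all miRNAs, E10.5 to E14.5 for 12, E17.5 to the newborn for 3 and E14.5 to E17.5 for 1. All 5 members that met the minimum at E10.5 alone are among the 12, a place that the choice favoured. It also favoured miR-487b-5p and both strands of mir-3072 among the 38, and miR-300-5p and miR-487b-5p among the 50.

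The newborn library also held more of a neural marker than the others. The level of miR-9-5p, abundant in neural tissue, was 834, 403, 452, 13011 and 443 CPM from E10.5 to the adult, and 6 neural miRNAs summed to between 3295 and 6939 CPM in the other 4 libraries and to 21860 in the newborn. That newborn sum was mostly miR-9-5p and miR-128-3p, the latter at 8250 CPM beside 6519 at E14.5. At lower levels, miR-9-3p, miR-124-3p and miR-137-3p were also highest in the newborn, while miR-219a-5p had 1 newborn count and 9 at E10.5. The part of these neural markers in the cluster's newborn values was not tested. Set against E17.5 in place of the newborn, the adult median was -3.44.

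By count, miR-541-5p and miR-379-5p led the cluster. Capture differs between sequences, so counts of different miRNAs in 1 library rank reads and not molecules. For miR-541-5p the counts were 186844, 113167, 86225, 42631 and 4401 from E10.5 to the adult, or 52.5-fold more CPM at E10.5 than in the adult (50.9 to 54.1), and its rank among all miRNAs went from 18 to 85. For miR-379-5p, raised by glucocorticoids in mouse liver, where it acts on blood lipids, they were 119355, 97963, 93205, 64236 and 6175, or 23.9-fold (23.3 to 24.5), with ranks of 23 and 72. The first was ahead at E10.5 and E14.5 and the second from E17.5 on.

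Next came miR-409-3p, at 72312, 34471, 25816, 10510 and 636 counts, which is 141-fold more CPM at E10.5 than in the adult (130 to 152). The counts of miR-381-3p were 40958, 34393, 30444, 16932 and 1062, or 47.7-fold (44.9 to 50.7). A miRNA required with miR-134 and miR-329 for activity-dependent dendrite growth in rat neurons, miR-381-3p stood at 60.6% of its E10.5 CPM at E17.5, where miR-409-3p stood at 29.1%. The counts of miR-411-5p were 25475, 18195, 17860, 11310 and 1643, or 19.2-fold (18.2 to 20.2), the lowest ratio among the 12 most abundant members.

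For miR-382-5p the counts were 29313, 16848, 13011, 9087 and 823, which is 44.0-fold (41.1 to 47.2). The strand miR-543-3p, one of 3 cluster members that act on N-cadherin in the developing mouse cortex, had 21931, 11477, 8929, 3509 and 288, or 94.1-fold (83.8 to 106). The remaining abundant members, miR-411-3p, miR-300-3p and miR-485-5p, were 54.7-fold, 60.0-fold and 31.0-fold higher at E10.5 than in the adult. The members miR-300-3p and miR-381-3p differ by G4A, U21G and C22U, with the base of miR-300-3p first, so the first difference lies in the seed.

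Members differed widely in how far apart E10.5 and the adult were. On the log2(CPM + 1) scale the widest difference, -8.45, was that of miR-323-3p, whose counts were 24637, 6514, 3969, 3227 and 74. It was 412-fold higher in CPM at E10.5 than in the adult (328 to 524), and 4.16-fold higher than at E14.5. Next was miR-758-3p of the neighbouring hairpin, at -7.19, with counts of 1637, 288, 176, 85 and 1. Its ratio of 2024 rests on 1 adult count and has an interval of 363 to 79974.

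After it came miR-134-5p, which limits the growth of dendritic spines in rat hippocampal neurons, with counts of 30320, 12388, 8698, 3929 and 251. The difference was -7.15 and the ratio 149-fold (132 to 170). Next were miR-409-3p at -7.11 and miR-410-3p at -6.84. For miR-410-3p the counts were 5078, 2146, 1612, 949 and 42, or 149-fold (110 to 208). In these 5 members the count was lower at every later stage. Their order holds for log2(CPM + 1), where the pseudocount narrows members with few adult counts. Members with larger ratios than miR-134-5p included miR-380-3p at 825-fold (228 to 6815) and miR-667-5p at 758-fold (209 to 6269). Each of these ratios rests on 2 adult counts.

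The smallest differences among members with at least 100 counts at E10.5 belonged to miR-154-5p at -2.60, miR-299b-3p at -2.97, miR-496a-3p at -3.61, miR-376c-3p at -3.86 and miR-668-3p at -3.89. Low members are pulled toward 0 by the pseudocount, so the ratios are given too. For miR-154-5p the counts were 102, 72, 59, 46 and 10, or 12.6-fold (6.58 to 27.1). For miR-299b-3p they were 135, 75, 92, 50 and 10, or 16.7-fold (8.80 to 35.6). The latter were between 3.76% and 7.41% of the counts of miR-299a-3p, whose first 18 bases it repeats.

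For miR-496a-3p the ratio was 28.3-fold (14.6 to 62.8), and for miR-376c-3p it was 30.5-fold (16.8 to 61.7). A course unlike that of most members was seen for miR-668-3p, with 41.4, 47.1, 45.3, 27.6 and 1.85 CPM, the last from 24 counts. Its values at E14.5 and E17.5 lay slightly above E10.5 in CPM and the adult value 22.4-fold below it (14.8 to 35.3). Under median-ratio scaling its log2 difference of E14.5 against E10.5 was 0.86. The proximal miR-136-5p had a similar course, with 40.8, 46.2, 47.5, 34.4 and 3.47 CPM. The 3p strand of mir-376b was nearly level before birth in CPM alone, with 390, 401, 402, 219 and 6 counts, or 37.2, 34.8, 31.3, 17.2 and 0.463 CPM. Under median-ratio scaling it was 0.58 higher at E14.5 than at E10.5 on the log2 scale. Its adult value was 80.3-fold below E10.5 in CPM (36.6 to 220).

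Other members with a role described in muscle or nerve had similar courses. Inhibition of miR-410 and miR-495 limits hypertrophic growth of cultured rodent cardiomyocytes, and miR-495-3p had 2470, 1286, 929, 381 and 47 counts, or 65.0-fold (48.7 to 88.7). Overexpression of miR-494 protects the mouse heart from ischaemia and reperfusion, and miR-494-3p had 1600, 541, 435, 258 and 14 counts, or 141-fold (84.0 to 259). A regulator of synaptic vesicle protein in rat neurons, miR-485-5p had 7317, 4168, 3919, 2779 and 292 counts, or 31.0-fold (27.5 to 34.9). Each of the 3 was lower at every later stage.

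At the low end, 9 members counted in the earliest library had no adult count, among them miR-494-5p, miR-376a-3p and miR-487b-5p. The 9 hold all 5 members that met the minimum at E10.5 alone, so the choice favoured this count. No share over all miRNAs is given beside it. Taking 3 adult counts as the limit that 0 allows, the 9 were at least 4.94-fold to at least 23.1-fold higher at E10.5. The lowest bound was that of miR-496a-5p, one of the 5, and the widest that of miR-494-5p. The counts of miR-487b-5p were 43, 3, 3, 2 and 0, and it is one of the 5 members that met the minimum at E10.5 alone. A wide early gap was seen in miR-410-5p, with 1007, 120, 82, 69 and 3 counts and 9.23-fold more CPM at E10.5 than at E14.5 (7.63 to 11.2).

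Within the cluster's own counts, which no scaling affects, the makeup in the adult leaned toward mir-379 and mir-411, the first 2 hairpins. The share of miR-379-5p was 18.6%, 25.0%, 28.5%, 34.4% and 35.9% from E10.5 to the adult, or 1.93-fold larger in the adult (1.88 to 1.98). Likewise miR-411-5p held 3.97% and 9.56% at both ends, a 2.41-fold larger adult share (2.29 to 2.53). The share of miR-541-5p had no such course, at 29.1%, 28.9%, 26.4%, 22.8% and 25.6%. Both leading members together made up 47.7% at the first and 61.5% at the last stage, and the 10 leading members 88.2% and 93.0%.

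Shares became smaller for miR-409-3p, with 11.3%, 8.79%, 7.90%, 5.63% and 3.70%, for miR-134-5p, with 4.72% in the first and 1.46% in the last library, and for miR-323-3p, with 3.84% and 0.431%. The last was an 8.91-fold smaller share (7.09 to 11.3). The share of miR-381-3p was 6.38%, 8.77%, 9.32%, 9.07% and 6.18%, with the lowest values at both ends. Of 54 members counted at both ends, 10 had a larger share in the adult with an interval of the ratio above 1, 26 a smaller one with an interval below 1, and 18 an interval that held 1. The 10 were 7 5p and 3 3p strands, and the 26 were 10 5p and 16 3p strands. The widest gain was that of miR-376b-5p, whose share was 14.8-fold larger (9.33 to 22.8) on 76 counts in the E10.5 library and 30 in the adult one.

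**Figure D2:**
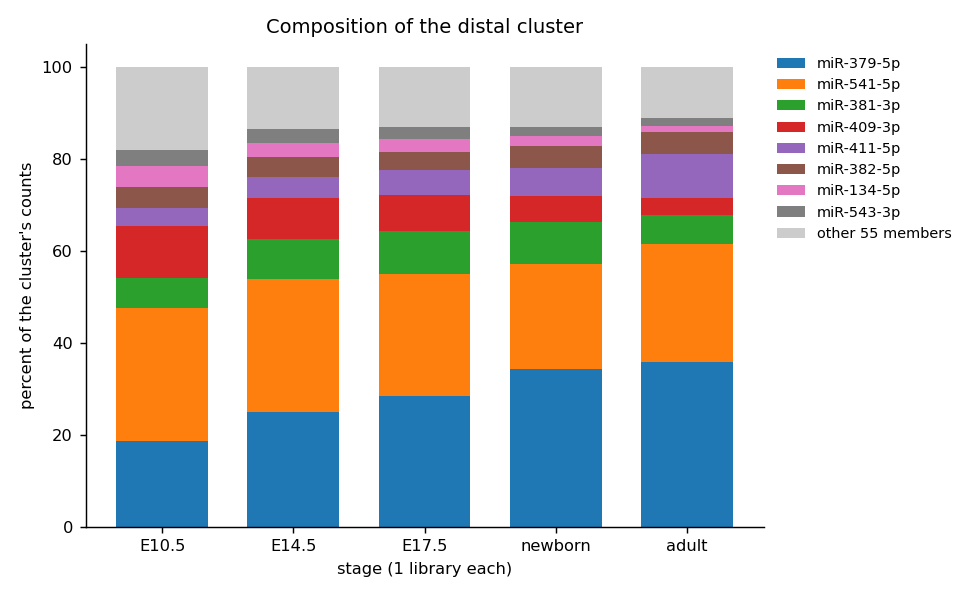
Stacked bars of the share of the cluster's counts held by the 8 members with the largest mean share and by the other 55, at each stage with 1 library each. The segment of miR-379-5p grows from 18.6% at E10.5 to 35.9% in the adult and that of miR-409-3p shrinks from 11.3% to 3.70%.

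The balance of the 2 strands of a hairpin is likewise free of scaling, and for 9 of 26 hairpins compared it differed between E10.5 and the adult. With at least 100 counts at E10.5, 26 hairpins could be compared, of which 13 gave mostly 5p and 13 mostly 3p strands at E10.5. The exact intervals of the E10.5 and adult shares lay apart for 9. In 8 of them, or 30.8% of the 26, the 5p share was higher in the adult, near the 25% of all 180 hairpins compared in the table. In 1, or 3.85%, it was lower, beside 22.2%. Outside the domain 35 of 141 hairpins had a higher and 39 a lower 5p share with intervals apart. The 5p strands together made up 65.2%, 69.2%, 70.1%, 74.0% and 80.8% of the cluster's counts from E10.5 to the adult. This sum also moves with the shares of the hairpins, and miR-379-5p alone held 18.6% at E10.5 and 35.9% in the adult. Within the 26 hairpins, the median change of the 5p share was 2.11 points.

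The clearest case by count was mir-411, printed here with both strands in capitals because its 5p share was larger at each later stage (chr12:109710175-109710256, plus strand, GRCm38.p6). The 5p strand made up 62.7%, 65.2%, 67.1%, 75.9% and 82.7% (81.0 to 84.4) of its counts, with 1986 counts in the adult. The hairpin mir-376b is printed for its switch (chr12:109723458-109723539, plus strand). Its 5p strand held 16.3% (13.1 to 20.0) at E10.5, 12.8%, 13.4%, 24.2% and then 83.3% (67.2 to 93.6) of 36 adult counts. The 5p strand of mir-376b differs from that of mir-376c by G19U alone, so counts of these could be split between them.
mir-411: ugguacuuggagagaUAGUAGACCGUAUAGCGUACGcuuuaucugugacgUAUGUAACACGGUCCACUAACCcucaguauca
mir-376b: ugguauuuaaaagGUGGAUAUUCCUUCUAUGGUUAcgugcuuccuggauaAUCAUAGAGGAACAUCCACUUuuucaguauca

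In 2 further hairpins the strand with more counts was not the same at all stages. For each, the interval at E10.5 or in the adult held 50%, so these counts do not settle a change of leading strand. No share of such changes over all hairpins is given. For mir-329 the 5p share was 48.3% (45.0 to 51.5) at E10.5 and 77.4% (58.9 to 90.4) in the adult. For mir-667 it was 80.4% (78.3 to 82.4) at E10.5 and 33.3% (4.33 to 77.7) in the adult, the latter from 6 counts. Among hairpins that kept theirs, mir-485 had 5p shares of 72.4%, 73.1%, 77.9%, 80.9% and 86.9%, and mir-380 had 71.5% at E10.5 and 93.9% (79.8 to 99.3) in the adult. For mir-154 the shares were 59.3% and 90.9%, and for mir-377 they ranged over 22.8 points, on 11 and 7 adult counts.

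The minor strands of mir-409 and mir-323 also held more in the adult, 9.53% against 4.46% and 11.9% against 4.56%. The hairpin mir-379 went from 96.2% to 98.5% of 5p. The hairpin mir-410 had its gap early, with 16.5% (15.6 to 17.5) of 5p at E10.5 and 5.30% (4.41 to 6.30) at E14.5. Its later shares were 4.84%, 6.78% and 6.67% (1.40 to 18.3). Strongly one-sided hairpins such as mir-134 and mir-541 stayed so, with 5p shares that round to 99.9% or 100% at every stage.

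**Figure D3:**
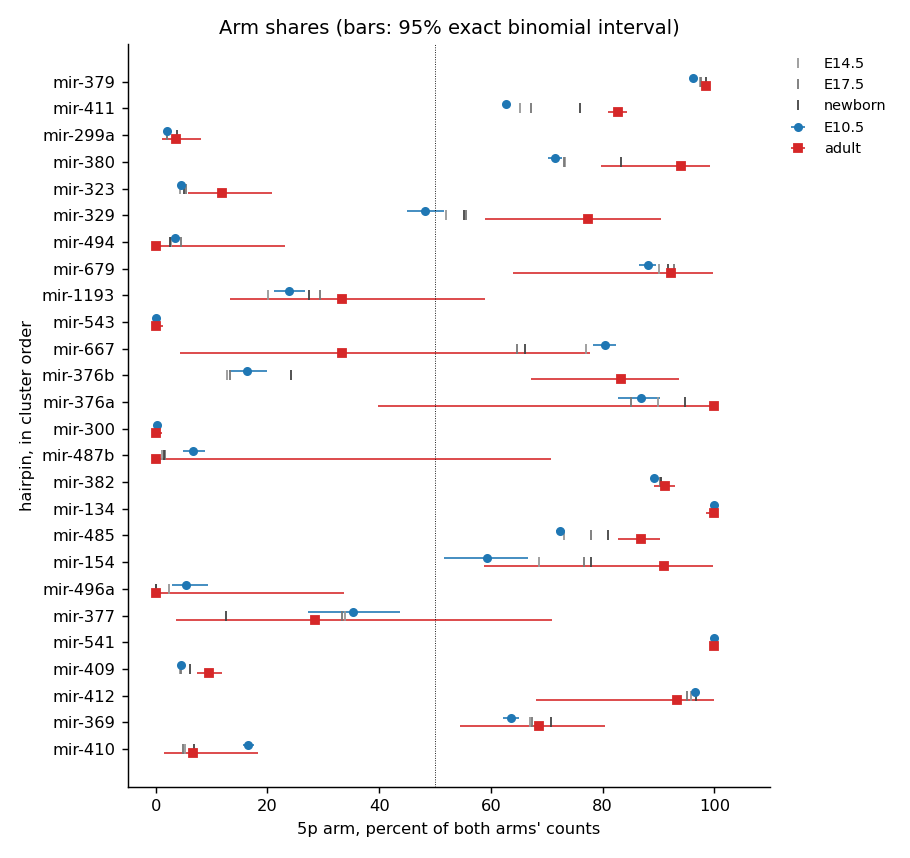
Share of the 5p strand in the counts of both strands for 26 hairpins in cluster order, with circles and squares for E10.5 and the adult, ticks for the stages between, and bars for 95% exact binomial intervals. For mir-376b the point moves across the 50% line, from 16.3% to 83.3%, while most hairpins keep to one side.

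Position along the cluster had little relation to level or to the difference between stages. Over 36 hairpins, the order in RefSeq had a Spearman rho of -0.09 and a Pearson r of -0.09 with log2(CPM + 1) at E10.5, and 0.01 and 0.09 with the log2 difference of the adult against E10.5. These are descriptions over hairpins that mostly share a transcript and all share the 5 libraries. The level at E10.5 and the difference had a rho of -0.64 and an r of -0.63, of which part is built in, since both hold the E10.5 value and the pseudocount narrows low members. Neighbours could differ, as miR-541-5p at -5.71 and miR-409-3p at -7.11.

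**Figure D4:**
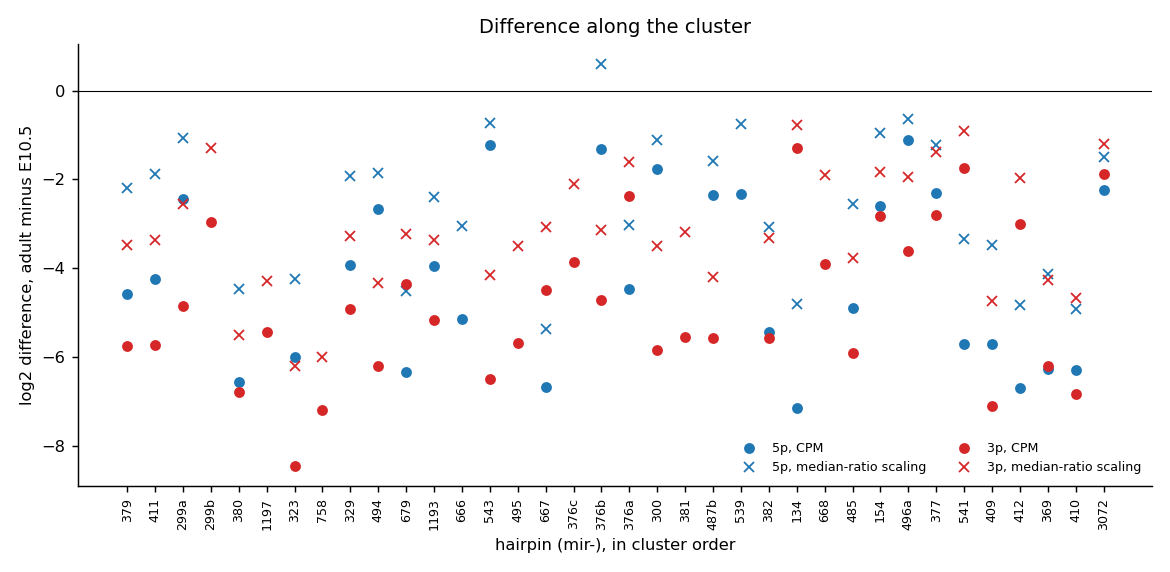
Log2 difference of the adult against E10.5 for each member, by hairpin in cluster order, with blue for 5p and red for 3p strands, circles for log2(CPM + 1) and crosses for median-ratio scaling. All circles lie between -8.45 and -1.10, 1 cross (miR-376b-5p, 0.60) lies above 0, and rho with the order is 0.01.

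Where a seed is also carried by a miRNA from outside the domain, the member's part of the pair's counts was smaller in the adult for the 2 pairs in which the member led at E10.5. For miR-329-3p and miR-362-3p, the member held 90.2%, 82.0%, 65.1%, 53.4% and 29.2% (12.6 to 51.1) of the counts. Its own counts were 476, 219, 123, 78 and 7, and those of miR-362-3p were 52, 48, 66, 68 and 17. For miR-410-3p and miR-344d-3p, the member held 94.2%, 93.8%, 93.6%, 83.5% and 76.4% (63.0 to 86.8), with 311, 142, 110, 188 and 13 counts of the partner.

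The other 2 outside partners dominated their pairs at every stage. Beside miR-672-5p, miR-377-5p held at most 0.546% of the pair's counts, and beside miR-1983, miR-412-3p held at most 0.764%. Over all 4 seeds the cluster supplied 20.5%, 14.5%, 14.3%, 9.21% and 6.19% (4.66 to 8.04) of counts from E10.5 to the adult. Inside the domain, miR-1193-3p shares its seed with the proximal miR-370-5p.

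**Figure D5:**
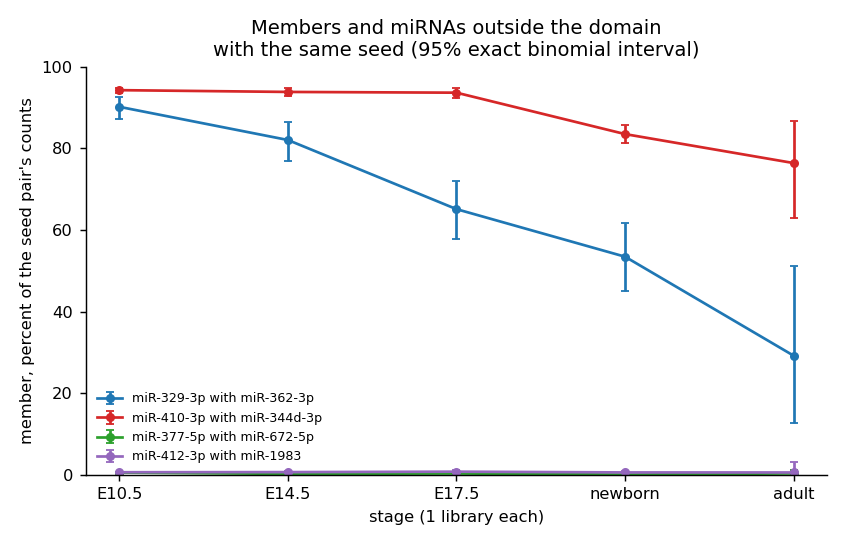
Share of a seed pair's counts that came from the cluster member, by stage with 1 library each, for 4 members paired with a miRNA outside the domain, with 95% exact binomial intervals as bars. The line of miR-329-3p runs from 90.2% to 29.2%, that of miR-410-3p from 94.2% to 76.4%, and the other 2 lie near 0.

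The 60 members with a sequence had a median length of 22 bases, from 18 to 25, and a median of 47.6% of G and C, beside 50% over all 672 measured miRNAs with a sequence. They began with U in 45% and with A in 40% of cases, and with C in 5%, where the larger set had 41.8%, 26.8% and 20.1%. The letters GGUUG, searched in the mature strand only, were in 8 members, or 13.3%, beside 3.93% of the 585 miRNAs outside the domain. The letters GGUCCAC were in 5 members, the 3p strands of mir-379, mir-380, mir-411, mir-412 and mir-758, and in 0 of the 585. In miR-379-3p and miR-411-3p, printed above, this run follows the seed. The looser GGUCNAC, with any base at N, was in 8 members and likewise in 0 of the 585. These hairpins arose largely by local duplication, so the contrast with the 585 is not independent support. A match is a description of the letters and says nothing on levels.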

How the data were processed

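Small RNA libraries (18 to 30 nt) of 5 stages were read from 1 table of deposited counts, which are whole numbers per mature miRNA. Per the submitters' processing notes, HISAT, HISAT2, Bowtie, Bowtie2, RSEM and the build mm9 were used for the series, with no role given. The sources used here do not say whether reads or molecular identifiers were counted. Columns were matched to samples by stage. The deposited long RNA table was not used here.

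Counts were scaled to the total of miRNA counts (CPM) or by median ratios over 750 miRNAs counted in every stage. Log2 differences used CPM + 1. Ratios have exact Clopper-Pearson intervals given both counts, shares exact binomial intervals (95%), and a count of 0 was taken at 3 counts for bounds. Library totals ran from 10479309 to 12953867. Scripts in Python 3.11.15 (numpy 2.4.6, pandas 2.3.3, scipy 1.17.1) were tested on simulated data. No test between stages was made, since each has 1 library.

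The members, the gene lists and the alternatives were chosen with earlier results of these data known. Members named are the 12 highest by summed CPM, the 5 largest and 5 smallest differences among those with at least 100 counts at E10.5, hairpins whose leading strand changed or with the 5 largest ranges, members sharing a seed, and 8 with a known role. Others are examples chosen after their values were seen. Marker lists covered cardiomyocytes (51949 CPM in sum at E10.5, 242063 in the adult), neural cells (6413, 3295), endothelium, blood (230, 441, with miR-142a-3p not matched), fibroblasts and smooth muscle, liver and epithelium. Sequences came from RefSeq (GRCm38.p6), and no coordinate was converted.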

Additional observations from a re-analysis of the deposited data

How the results depend on the processing

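The difference of the distal and proximal medians, 0.34 in CPM, turned to -0.080 under median-ratio scaling and -0.22 with at least 100 counts, the only 2 reversals among the summary values tried, and 39 values moved and 84 did not. No paired analysis was possible because each stage has 1 library, and for the same reason no replicate could be left out. Members at least 2-fold lower at E14.5 than at E10.5 numbered 9 under median-ratio scaling, 19 with the 10 most abundant miRNAs left out of the total and 6 at a 4-fold limit, against 38, and their median was -0.42, -0.81 without the 10, -1.21 with a pseudocount of 0.1 and -0.93 with 5. At E17.5 against E14.5 the count was 0 under median-ratio scaling, 5 and 0 with pseudocounts of 0.1 and 5, 1 with at least 100 counts and 0 at 4-fold, against 2, and the median was -0.26 under median-ratio scaling and -0.31 with a pseudocount of 5. For the newborn against E17.5 the count was 6 under median-ratio scaling, 9 with a pseudocount of 5 and 0 at 4-fold, against 14, 1 member was higher with a pseudocount of 0.1, and the median was -0.47 under median-ratio scaling and -0.44 with a pseudocount of 5. For the adult against the newborn the median was -3.30 and -1.33 with pseudocounts of 0.1 and 5, -3.25 with at least 100 counts, and -3.44 with E17.5 in place of the newborn, an alternative added after seeing the data. For the adult against E10.5 it was -3.07 under median-ratio scaling, -5.75 and -3.63 with pseudocounts of 0.1 and 5, and -5.63 with at least 100 counts. With the 10 most abundant miRNAs left out of the total, the cluster's share was 10.1%, 7.36%, 6.06%, 3.88% and 0.405% from E10.5 to the adult. Without miR-541-5p it was 4.35%, 2.42%, 1.87%, 1.13% and 0.0987%. With seeds of bases 2 to 7, the cluster's part of shared seeds at E10.5 was 32.5%. The cause was not tested, beyond the construction of each alternative. Adult values of members under 10 counts, 29 of 63, are limited by depth.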
